A study of Homo sapiens with 4 samples.

Results

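Small cell lung cancer cells make and release neuropeptides, and several of these peptides act back on receptors of the same cells. The genes described here are 10 members of that system, chosen by symbol: the peptide genes GRP, CALCA, CALCB, ADCYAP1, GAL, SST and NMU and the receptor genes GRPR, KISS1R and SSTR2. The platform annotation paired 17 probe sets with these symbols, of 54613 probe sets that are not array controls, and the 10 genes are 10 of 19775 genes with a probe set paired with 1 symbol. Each of the 17 probe sets was paired with 1 gene alone.

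Transcript levels were measured on 4 Affymetrix arrays, 2 for each of the established human lines NCI-H209 and Lu139, both grown from small cell lung cancer. By electroporation the cells received siTTF-1, siRNA that targets the transcription factor TTF-1 (the product of NKX2-1), or siNTC, the non-targeting control. Each of the 4 groups, NCI-H209 siNTC, NCI-H209 siTTF-1, Lu139 siNTC and Lu139 siTTF-1, is 1 array, so a difference within a line has no replicate check, and an siRNA effect is replicated only by being seen in 2 lines. Nothing in the labels says how many siRNA sequences were used or how long after electroporation the cells were taken.

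Neuropeptides are cut from longer precursors in secretory granules, and many of them need an amide group at their end to be active. Most act on G protein-coupled receptors that raise calcium through phospholipase C or raise or lower cyclic AMP. Gastrin-releasing peptide, the product of GRP, is a mammalian relative of bombesin and a known autocrine growth factor of small cell lung cancer, and calcitonin and calcitonin gene-related peptide are products of pulmonary neuroendocrine cells.

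The promoter sequences of the members whose levels differed most after siTTF-1 are shown because the study lowered a DNA-binding factor. RefSeq sequences (GRCh38.p14) were found for 7 of the 10 members, with 8 start sites in all, which leaves out CALCB, GAL and KISS1R, and those of CALCA, ADCYAP1 and GRP are printed as the 250 bases before the start, 5′ to 3′ on the strand of the gene. Capitals mark CAAGTG, a core bound by NKX2 factors, and TGACG, the shortened cAMP response element, each searched on both strands, so that capitals can also show the reverse complement. CALCA is on the minus strand at chr11:14972352-14972601, ADCYAP1 on the plus strand with start sites at chr18:904621-904870 and chr18:905116-905365, and GRP on the plus strand at chr18:59219908-59220157.
CALCA: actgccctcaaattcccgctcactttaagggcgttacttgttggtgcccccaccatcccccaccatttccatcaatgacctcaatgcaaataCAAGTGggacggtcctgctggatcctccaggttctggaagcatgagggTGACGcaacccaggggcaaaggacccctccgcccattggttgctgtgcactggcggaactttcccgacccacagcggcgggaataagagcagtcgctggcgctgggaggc
ADCYAP1 first start: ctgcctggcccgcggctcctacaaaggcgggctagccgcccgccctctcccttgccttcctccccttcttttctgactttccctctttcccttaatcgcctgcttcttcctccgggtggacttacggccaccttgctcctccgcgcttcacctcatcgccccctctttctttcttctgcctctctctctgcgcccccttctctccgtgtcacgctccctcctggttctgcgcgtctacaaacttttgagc
ADCYAP1 second start: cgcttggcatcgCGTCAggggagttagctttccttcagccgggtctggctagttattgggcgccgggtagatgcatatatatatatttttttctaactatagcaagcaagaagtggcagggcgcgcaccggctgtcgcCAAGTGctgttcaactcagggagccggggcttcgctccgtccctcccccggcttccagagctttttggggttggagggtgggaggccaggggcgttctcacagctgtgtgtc
GRP: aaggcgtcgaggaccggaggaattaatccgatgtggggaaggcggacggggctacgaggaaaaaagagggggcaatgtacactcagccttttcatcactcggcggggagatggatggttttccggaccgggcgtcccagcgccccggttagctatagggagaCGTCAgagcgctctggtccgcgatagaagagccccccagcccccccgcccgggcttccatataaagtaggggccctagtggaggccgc
CAAGTG lay 158 bases before the start of CALCA and 112 bases before the second start of ADCYAP1, and was in 2 of the 7 members, against 9.5% of all 35116 promoter windows of the same length. TGACG was in 6 of the 7 members, among them CALCA, ADCYAP1 and GRP, against 21.2% of all windows. These counts are of members and the percentages are of single windows. ADCYAP1, with 2 windows, was counted for its second alone, as its first held neither motif. The full palindrome TGACGTCA, which contains TGACG, was in the window of SST alone among the 7, at 47 bases before the start, against 1.65% of all windows. Such a match is a description of the letters and not of a bound site.

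The libraries were checked first. The targeted transcript NKX2-1 was lower after siTTF-1 on both of its probe sets in both lines. On 211024_s_at it went from 596 to 243 in NCI-H209 (40.7% of control) and from 779.9 to 461 in Lu139 (59.1%), and on 210673_x_at from 196 to 127 (64.6%) and from 400.4 to 221 (55.3%), with limma adjusted p of 0.116 and 0.122 over both lines. All 5 neuroendocrine markers with a probe set, INSM1, CHGA, SYP, NCAM1 and DDC, were above the expression limit (an intensity of 37.0) in both lines. DDC, which makes amine transmitters, read 5574 in control and 2197 in siTTF-1 cells of NCI-H209, and 6280.4 and 6280 in Lu139. Of 3 markers of the tuft-like form of this cancer, POU2F3 and TRPM5 were below the limit in both lines and ASCL2 was above it in NCI-H209 alone, and of 2 non-neuroendocrine markers YAP1 was below it and REST, a repressor of neuronal genes, above it in both. Of 8 markers of leukocytes, fibroblasts and endothelium, 5 were above the limit in both lines (CD3E, COL1A1, PDGFRB, PECAM1 and VWF), and PTPRC, COL1A2 and CDH5 were below it. COL1A1 read from 259 to 362 on the 4 arrays and PECAM1 from 94.4 to 146, so an intensity of that size does not by itself show that a gene is active. Summed over these 8 markers, the intensity went from 638 (siNTC) to 712 (siTTF-1) in NCI-H209 and from 635 to 741 in Lu139, and 0 of them were listed at 0. Their part in the results below was not tested.

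After siTTF-1, CALCA transcripts were higher in NCI-H209. Transcripts of ADCYAP1 and KISS1R were higher in both lines, and passed 1.5-fold in Lu139 alone. In such bulk RNA, more or fewer cells that make a transcript and more or less of it per cell cannot be told apart. In NCI-H209, 3 of the 13 member probe sets above the expression limit were at least 1.5-fold higher, all of them of CALCA, and 0 were at least 1.5-fold lower. Over all probe sets that passed the limit there, 1.12% were at least 1.5-fold higher and 3.51% at least 1.5-fold lower. In Lu139, 3 of 12 member probe sets were at least 1.5-fold higher, namely both of ADCYAP1 and that of KISS1R, and 0 were lower, against 0.16% and 1.61% of all probe sets. Counted by gene (the brightest probe set), 1 of 8 was higher in NCI-H209 and 2 of 10 in Lu139, against 1.09% and 0.193% of all genes. At 2-fold, 0 member probe sets passed in either line, where 0.148% of all probe sets were higher and 0.653% lower in NCI-H209, and 0.00638% were higher and 0.166% lower in Lu139. Differences here and below are siTTF-1 minus siNTC of log2(intensity + 18.7), a scale that understates the change of dim probe sets. The median over the member probe sets above the limit was 0.18 in NCI-H209 and 0.20 in Lu139, against 0.01 and 0.02 over all probe sets. As 4 of the 13 in NCI-H209 are CALCA, the median with 1 probe set per gene (the brightest) was lower there, at 0.048, and 0.16 in Lu139, against 0.0084 and 0.033 over all genes.

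**Figure D1:**
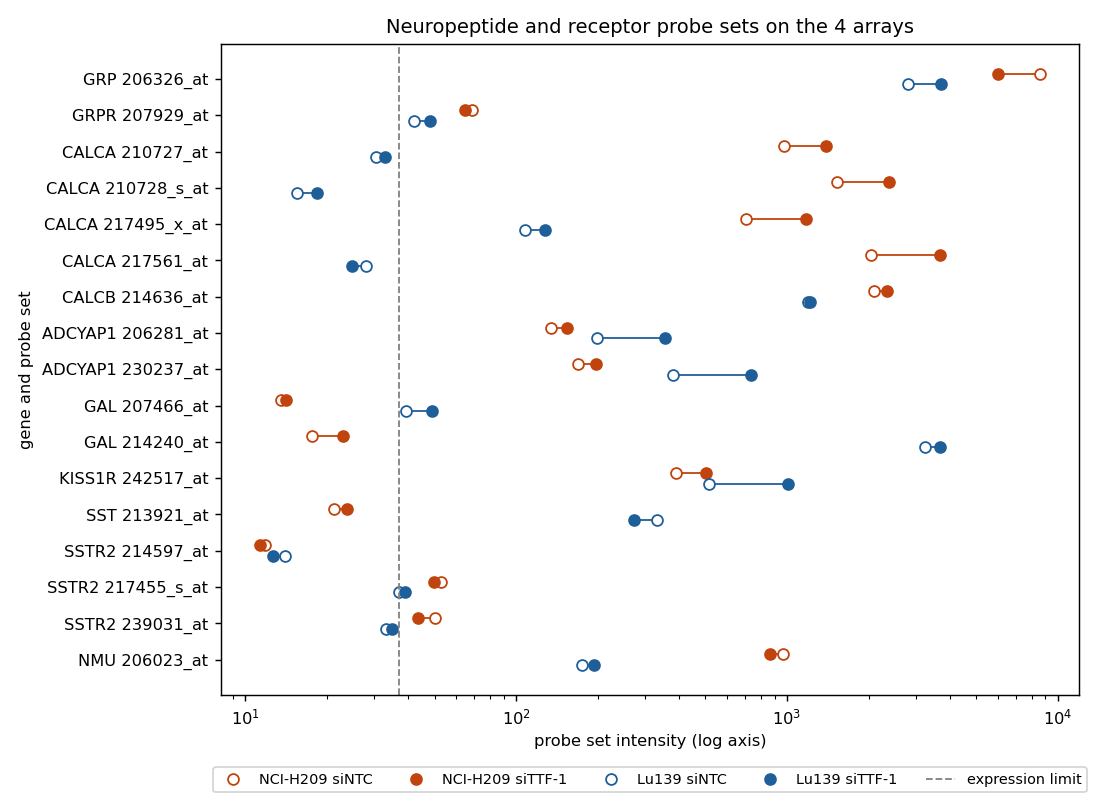
Intensity (log axis) of the 17 member probe sets on the 4 arrays, with open circles for siNTC, filled circles for siTTF-1, and a dashed line at the expression limit of 37.0. CALCA is high in NCI-H209 and higher there with siTTF-1, ADCYAP1 and KISS1R are higher with siTTF-1 in Lu139, and GAL and SST are above the limit in Lu139 alone.

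CALCA encodes calcitonin and, by alternative splicing, the alpha form of calcitonin gene-related peptide, a vasodilator. In NCI-H209, 217561_at gave 2036 with siNTC and 3671 with siTTF-1, and in Lu139 it gave 28.0 and 24.7. The values of 210728_s_at were 1536 and 2387 in NCI-H209, then 15.6 and 18.5 in Lu139. Those of 210727_at were 978 and 1395 in NCI-H209, then 30.3 and 32.7 in Lu139. All of these were higher after siTTF-1 in NCI-H209 and below the expression limit in Lu139. The last probe set, 217495_x_at, read 707 and 1175 in NCI-H209, against 108 and 128 in Lu139. It was the 1 CALCA probe set above the limit in Lu139, and its suffix marks a probe set that can bind other transcripts. The log2 differences in NCI-H209 were 0.84, 0.63, 0.50 and 0.72 in the order given, so the 4 probe sets ran the same way in that line and 210727_at stayed below 1.5-fold. In Lu139, 217495_x_at had a difference of 0.22, which was 0.075 with the mean of all CALCA probe sets, the others being below the limit.

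CALCB encodes the beta form of calcitonin gene-related peptide and is a close paralog of CALCA. Its probe set, 214636_at, read 2095 and 2347 in NCI-H209, against 1191 and 1218 in Lu139, with log2 differences of 0.16 and 0.03. CALCB was thus far above the limit in Lu139, where 3 CALCA probe sets were below the limit, and its siTTF-1 value in either line was within 1.5-fold of control. Probe sequences were not used here, so any binding of CALCB by 217495_x_at was not tested.

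ADCYAP1 encodes PACAP, a peptide that raises cyclic AMP. On 230237_at the intensity was 380.4 in control Lu139 cells and 739 after siTTF-1, and 169 and 197 in NCI-H209. On 206281_at it was 199 and 354 in Lu139 and 134 and 154 in NCI-H209. Both probe sets were higher after siTTF-1 in both lines, by 0.93 and 0.77 on the log2 scale in Lu139 and by 0.20 and 0.18 in NCI-H209. Of 31324 probe sets above the limit in Lu139, they had the 8th and the 19th highest difference.

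GRP had the largest gap between the lines among the 4 member probe sets above the limit in both that had opposite signs. With siNTC, 206326_at gave 8585 in NCI-H209 and 2786 in Lu139. With siTTF-1 it gave 6009 in NCI-H209, or 70.0% of control, and 3688 in Lu139, or 132%. The log2 differences were -0.51 and 0.40, both short of 1.5-fold. With 1 array a group, whether the effect differs between the lines could not be tested. GRP stayed higher in NCI-H209 than in Lu139 on both pairs of arrays.

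GAL, SST and NMU encode galanin, somatostatin and neuromedin U. GAL on 214240_at read 3225 and 3659 in Lu139 and 17.6 and 22.9 in NCI-H209, where it was below the limit. The difference in Lu139 was 0.18, and that of its dim probe set 207466_at, at 39.1 and 48.8, was 0.22. SST on 213921_at read 331 and 273 in Lu139, a difference of -0.26, and was below the limit in NCI-H209 at 21.2 and 23.7. NMU on 206023_at read 970.4 and 868 in NCI-H209, against 175 and 194 in Lu139, with differences of -0.16 and 0.14. None of the probe sets of these 3 genes passed 1.5-fold in a line in which it was above the limit.

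Of the receptors, KISS1R, which binds kisspeptin and signals through phospholipase C, lay far above the limit in both lines. On 242517_at it read 515 in control Lu139 cells and 1008 after siTTF-1, and 390.4 and 502 in NCI-H209. Its log2 difference of 0.94 in Lu139 was the 6th highest of 31324 probe sets, and its difference of 0.35 in NCI-H209 was within 1.5-fold. GRPR, the receptor of gastrin-releasing peptide, lay closer to it: 207929_at gave 69.0 and 64.9 in NCI-H209 (difference -0.069) and 42.0 and 47.9 in Lu139 (0.13). SSTR2, the somatostatin receptor used in tumour imaging, lay near the limit: 217455_s_at read 52.9 and 49.7 in NCI-H209, against 37.0 and 38.8 in Lu139, with differences of -0.067 and 0.046. On 239031_at it read 50.3 and 43.6 in NCI-H209 and was below the limit in Lu139 at 33.0 and 34.9, and 214597_at was at 14.1 or lower on every array. No probe set of GRPR or SSTR2 passed 1.5-fold in a line in which it was above the limit.

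**Figure D2:**
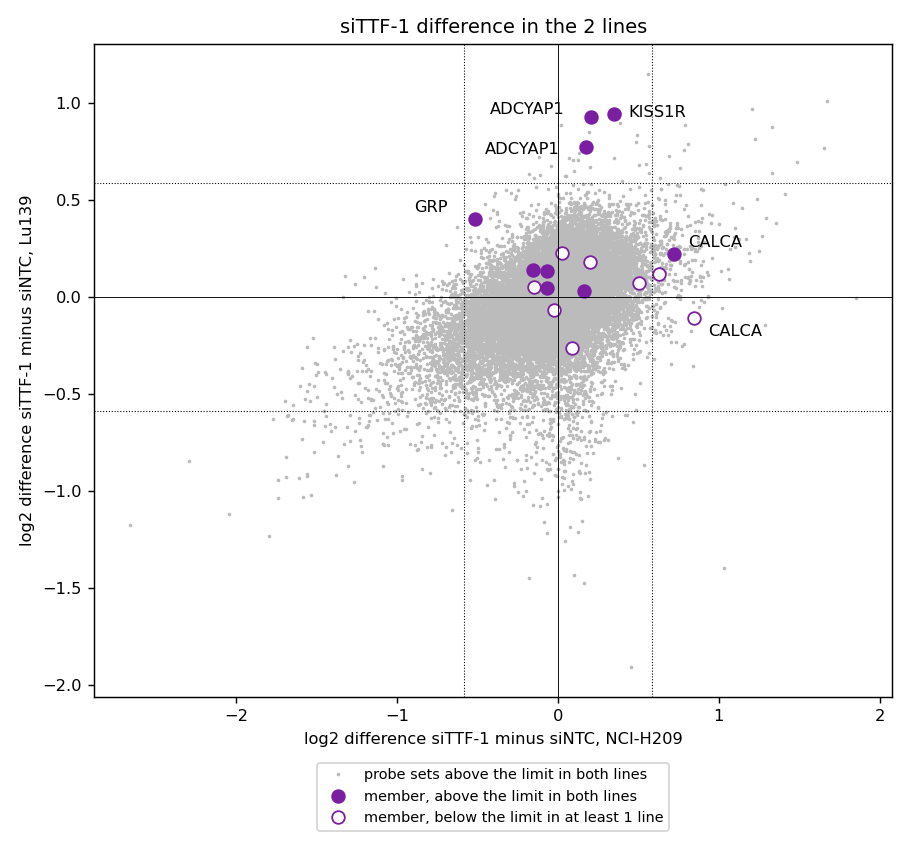
Log2 difference siTTF-1 minus siNTC in NCI-H209 (x axis) and Lu139 (y axis) for 29008 probe sets above the limit in both lines (grey) and the 17 member probe sets (purple; open where below the limit in at least 1 line), with dotted lines at 1.5-fold. Both ADCYAP1 probe sets and KISS1R are past 1.5-fold in Lu139, CALCA in NCI-H209, and 0 member probe sets in both lines.

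Over both lines together, limma with a term for the line called 0 of 32746 probe sets at an adjusted p under 0.05, or 0% of them. Without adjustment, 15.2% of all probe sets had a limma p under 0.05 (3043 or 9.29% lower, 1927 or 5.88% higher), as did 5 of the 15 member probe sets tested, which were all higher. Counted by gene (the brightest probe set), 3 of the 10 members were higher and 0 lower, against 6.23% and 8.69% of all genes. KISS1R had a mean log2 difference of 0.65 (SD 0.42, n = 2 lines; limma 95% interval 0.28 to 1.01) and a limma adjusted p of 0.169. ADCYAP1 had 0.56 (SD 0.51) on 230237_at and 0.48 (SD 0.42) on 206281_at, with limma adjusted p of 0.235 and 0.249. CALCA had 0.47 (SD 0.35) on 217495_x_at and 0.37 (SD 0.36) on 210728_s_at, with limma adjusted p of 0.231 and 0.300. The same direction was seen in 2 of 2 lines for each of these 5 probe sets, although 210728_s_at was below the limit in Lu139. They were picked by the limma p of the mean over the same lines, which favours such agreement, so it is no further support. The mean of GRP was -0.06 (SD 0.65, 95% interval -0.49 to 0.38), an interval that spans changes of either sign. Of the 9 member probe sets above the limit in both lines, 5 were higher and 0 lower in both, and 4 had opposite signs (44.4%, against 36.1% of all such probe sets).

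The spread of the differences depended on the level of a probe set. Among the 6507 probe sets of Lu139 at an intensity from 300 to 1000, where KISS1R and the brighter ADCYAP1 probe set lie, the 95th percentile of the difference was 0.25 and 0.246% were at least 1.5-fold higher. Among the 5262 probe sets of NCI-H209 above 1000, where 3 of the 4 CALCA probe sets lie, the 95th percentile was 0.37 and 1.18% were at least 1.5-fold higher. For probe sets under 100 the median difference was 0.042 (NCI-H209) and 0.048 (Lu139).

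The levels of the peptide genes set the lines apart. Lu139 had GAL and SST above the limit and NCI-H209 did not, and NCI-H209 had CALCA on all 4 probe sets, with GRP and NMU higher than in Lu139. The line coefficient of the same limma model gave 10 of the 15 tested member probe sets higher in NCI-H209 and 5 higher in Lu139 at an adjusted p under 0.05. Among these, GAL on 214240_at, SST, CALCA on 217561_at, 210728_s_at and 210727_at, and SSTR2 on 239031_at were below the limit in a line. They were tested through their level in the other line, so the filter favoured their calls, which add little to the levels themselves. Of all probe sets, 48.8% were called higher in NCI-H209 and 19.2% higher in Lu139. Counted by gene, 6 of the 10 members were called higher in NCI-H209 and 4 in Lu139, against 50.9% and 18.2% of all genes, so a call by itself says little about a member. The median probe set above the limit in both lines was -0.23 (log2, Lu139 minus NCI-H209), and intensities were exactly equal on the arrays of a line for 2416 and 2206 probe sets but for 0 between lines, so the lines may have been scaled separately. Quantile normalization over the 4 arrays moved that median to 0.07 and the share of calls that were higher in NCI-H209 from 71.7% to 46.6%. The member differences are therefore also given relative to the median probe set.

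GAL on 214240_at was higher in Lu139 by 6.47 on the log2 scale (95% interval 6.22 to 6.73; limma adjusted p = 3.6e-07), or by 6.70 relative to the median probe set and 6.69 relative to it after quantile normalization. As GAL was below the limit in NCI-H209, the difference depended on the pseudocount, from 5.91 to 6.87. With the mean of both GAL probe sets the difference was 3.71. SST was higher in Lu139 by 2.96 (interval 2.68 to 3.24; limma adjusted p = 2.18e-06), or 3.19 relative to the median. ADCYAP1 was higher in Lu139 by 1.45 on 230237_at and 0.81 on 206281_at (limma adjusted p = 2.61e-04 and 0.00273), the second being 0.51 between the control arrays and 1.11 between the siTTF-1 arrays. Relative to the median probe set they were 1.68 and 1.04. KISS1R was higher in Lu139 by 0.68 (interval 0.32 to 1.05; limma adjusted p = 0.00604), but by 0.38 between the control arrays and 0.98 between the siTTF-1 arrays, and without a term for the siRNA its limma adjusted p was 0.112. Relative to the median probe set it was 0.91, and with quantile normalization over the 4 arrays, not taken relative to the median, it was 1.14.

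CALCA had line differences (Lu139 minus NCI-H209) of -5.93, -5.76 and -4.56 on 217561_at, 210728_s_at and 210727_at, and -2.77 on 217495_x_at, with limma adjusted p from 6.14e-07 to 5.61e-06. Relative to the median probe set, these were -5.70, -5.53, -4.33 and -2.54. NMU had -2.21 (interval -2.49 to -1.92; limma adjusted p = 6.96e-06), GRP -1.16 (interval -1.60 to -0.72; limma adjusted p = 0.0011) and CALCB -0.87 (interval -1.08 to -0.66; limma adjusted p = 1.23e-04), which was -0.41 for CALCB with quantile normalization over the 4 arrays. Relative to the median probe set, NMU had -1.98, GRP -0.93 and CALCB -0.64. The GRP difference was -1.62 between the control arrays and -0.70 between the siTTF-1 arrays. GRPR (-0.43; limma adjusted p = 0.00651) and the tested SSTR2 probe sets (-0.31 and -0.32; limma adjusted p = 0.0192 and 0.0202) lay near the median of all probe sets, at -0.20, -0.08 and -0.09 relative to it. Their calls were lost with quantile normalization over the 4 arrays, with limma adjusted p of 0.0502 for GRPR and 0.164 and 0.135 for SSTR2.

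**Figure D3:**
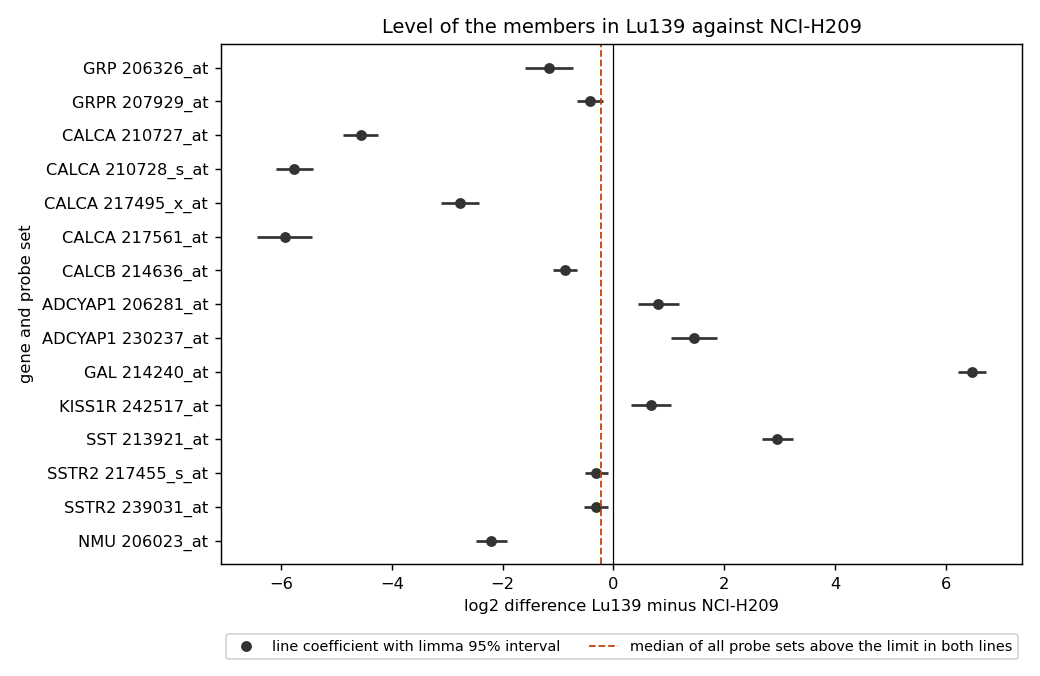
Log2 difference Lu139 minus NCI-H209 of the 15 member probe sets tested, with limma 95% intervals; the solid line marks 0 and the dashed line the median of all probe sets above the limit in both lines, at -0.23. GAL and SST lie far to the right, CALCA and NMU far to the left, and GRPR and SSTR2 beside the median.

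The receptors and ligands that pair with the members, each read from its brightest probe set unless stated, were mostly dim. Of 23 such genes, 10 were above the limit in both lines, 3 in NCI-H209 alone, 3 in Lu139 alone and 7 in neither, and 0 passed 1.5-fold in either line (over all genes by their brightest probe set, 1.09% were at least 1.5-fold higher and 3.52% lower in NCI-H209, and 0.193% and 0.936% in Lu139). Their median difference was 0.08 in NCI-H209 and 0.14 in Lu139, against 0.01 and 0.03 over all genes. All probe sets under an intensity of 100 had medians of 0.042 and 0.048. Markers of other cell types were as high or higher, with medians of 0.16 and 0.20 (fibroblasts), 0.13 and 0.29 (endothelium) and 0.16 and 0.25 (leukocytes). The medians of the paired genes therefore do not set them apart, and the part of low intensity was not tested. ADCYAP1R1, the receptor selective for PACAP, read 113 and 166 in Lu139, a log2 difference of 0.48, and 34.0 and 33.7 in NCI-H209, below the limit. It was higher in Lu139 by 1.57 (limma adjusted p = 4.56e-05), the line in which ADCYAP1 was higher too. As ADCYAP1R1 was tested through its level in Lu139, the filter favoured this call, which adds little to the levels themselves. Whether the levels of ADCYAP1 and ADCYAP1R1 are linked was not tested. VIPR1, which binds PACAP and VIP alike, read 186 and 184 in NCI-H209, against 173 and 189 in Lu139, and VIP was below the limit in both lines.

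Neuromedin B, encoded by NMB and related to gastrin-releasing peptide, read 518 and 665 in NCI-H209, against 183 and 221 in Lu139 (differences 0.35 and 0.25; limma adjusted p = 0.283), while its receptor gene NMBR and the orphan bombesin-like receptor gene BRS3 were below the limit. For calcitonin gene-related peptide, the receptor gene CALCRL was below the limit in both lines and its accessory gene RAMP1 read 81.4 and 96.9 in NCI-H209, against 66.3 and 86.8 in Lu139. RAMP2 had differences of 0.14 and 0.36, and RAMP3 of 0.08 and 0.13. CALCR, the calcitonin receptor gene, was at 35.4 and 38.4 in NCI-H209, below the limit as a mean, and at 35.4 and 43.1 in Lu139. KISS1, which encodes kisspeptin, was above the limit in NCI-H209 alone, at 43.5 and 52.0, and read 24.5 and 36.7 in Lu139.

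Of the galanin receptor genes, GALR1 and GALR2 were below the limit in both lines and GALR3 read 167 and 172 in NCI-H209, against 151 and 178 in Lu139. Among other somatostatin receptor genes SSTR3 read 133 and 153 in NCI-H209, against 133 and 148 in Lu139, and SSTR1, SSTR4 and SSTR5 lay between 28.9 and 46.7 on every array. CORT, a relative of SST, lay between 38.0 and 45.0. NMUR2, a receptor of neuromedin U, read 122 and 124 in NCI-H209, against 110 and 119 in Lu139, and NMUR1 lay between 30.1 and 37.1.

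**Figure D4:**
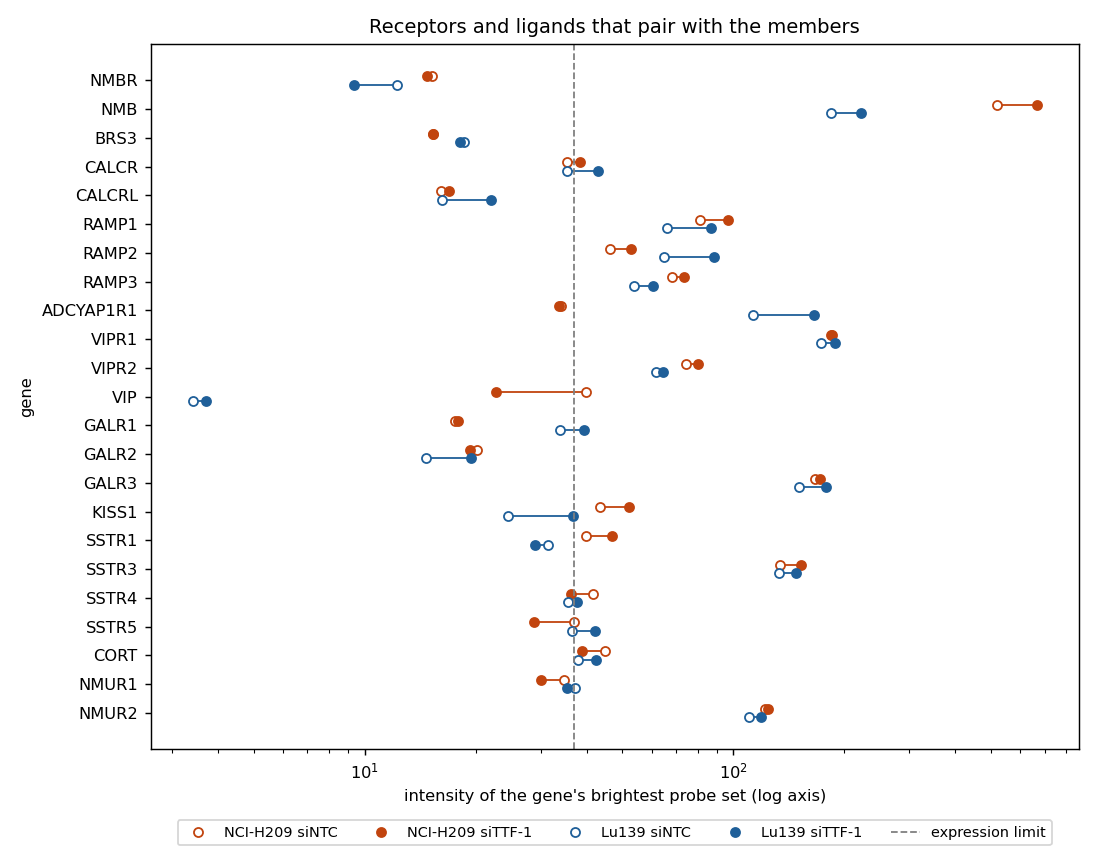
Intensity (log axis) of the brightest probe set of 23 receptor and ligand genes that pair with the members, on the 4 arrays, with a dashed line at the expression limit of 37.0. NMB and VIPR1 are above the limit on all 4 arrays, ADCYAP1R1 is above the limit in Lu139 alone, and CALCRL, NMBR, BRS3 and GALR2 are below it on all 4 arrays.

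Wider lists of the pathway held few differences of this size, each gene read from its brightest probe set. Of 37 other peptide genes, 0 passed 1.5-fold among the 23 above the limit in NCI-H209 or the 24 in Lu139 (median differences 0.057 and 0.10). Of 45 other receptor genes, 1 passed among the 26 in NCI-H209 and 0 among the 24 in Lu139 (medians 0.098 and 0.14). That gene, named here after its values were seen, was the oxytocin receptor gene OXTR, with 73.6 and 38.5 in NCI-H209, against 138 and 101 in Lu139 (differences -0.69 and -0.39; limma adjusted p = 0.145). Of 45 G protein and second messenger genes, 41 were above the limit in NCI-H209, 2 of them at least 1.5-fold lower, and 40 in Lu139, 1 of them lower, while 0 were higher (medians -0.058 and 0.020). PLCB1, a phospholipase C that Gq-coupled receptors activate, read 2728 and 1103 in NCI-H209, against 446 and 380.3 in Lu139 (differences -1.29 and -0.22; limma adjusted p = 0.225). ITPR2, an inositol trisphosphate receptor, read 109 and 36.4 in Lu139 and 117 and 110.2 in NCI-H209 (differences -1.22 and -0.07). The other in NCI-H209, named after its values were seen, was RGS4, which shuts off Gq and Gi signalling (-0.66).

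The list of peptide processing genes (CPE, PAM, FURIN, CPD and QPCT, which encode enzymes, and PCSK1N and SCG5, which encode an inhibitor and a chaperone of convertases) had 1 such difference among 7 genes in NCI-H209 and 0 among 6 in Lu139. The convertase genes PCSK1 and PCSK2 were not analysed here. It was CPD, a carboxypeptidase of the Golgi, at 2064 and 1251 in NCI-H209 (-0.71), named after its values were seen. PAM, which adds the terminal amide, read 637 and 746 in NCI-H209, against 2878 and 2521 in Lu139 and was higher in Lu139 by 1.94 (limma adjusted p = 1.13e-05). Over these 4 lists, 0 genes passed limma at an adjusted p under 0.05 for siTTF-1, while 9 of 98 tested were lower and 8 higher at an unadjusted limma p under 0.05. Over all genes, 8.69% were lower and 6.23% higher by that rule, so the shares of the 4 lists together, 9.18% and 8.16%, lay near the background. Of the 9 lower genes, 8 were second messenger genes, a list singled out here after its values were seen. Of 41 second messenger genes tested, 8 were lower, against 8.69% of all genes, and 2 higher, against 6.23%. In either direction the share was 24.4%, against 14.9% of all genes. RGS4, among the 8, was below the limit in Lu139. Whether this list differs from all genes was not tested. The remaining lower gene was OXTR.

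The genes most alike in level and change were found by the distance over the 4 log2 values among 14547 genes. For KISS1R they were DUSP14 (distance 0.38), CHCHD10 (0.46) and TTPAL (0.50), and for ADCYAP1 BICD1 (0.43), LIN28B (0.46) and SLC29A1 (0.50). DUSP14 had differences of 0.45 in NCI-H209 and 0.56 in Lu139, and LIN28B of 0.21 and 0.46. None of the 3 nearest genes of ADCYAP1 or KISS1R had a difference in Lu139 as large as that of the member. As these members ranked 8th and 6th of 31324 probe sets there, few genes could have matched them, so this adds nothing about them. For GRP the nearest was the metallothionein gene MT2A (0.23), with differences of -0.24 and 0.43, and for CALCA on 217495_x_at it was SERPINH1 (0.35), with 0.43 and 0.48. With 4 arrays such distances only describe these arrays.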

How the data were processed

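The authors deposited 1 linear intensity for each probe set and array. The submitters' processing notes list Affymetrix Expression Console; how probes were summarised and normalized, and the build, were not given in the sources used here. The 62 array controls among 54675 probe sets were not used. Of the rest, 41091 had exactly 1 symbol, 1801 several and 11721 none in the platform annotation; symbols were updated through RefSeq (GRCh38.p14), which matched 41037. Tests used log2(intensity + 18.7), the pseudocount being the 25th percentile of all values. Within a line, a probe set was read where its mean log2 value exceeded 5.80 (the 40th percentile over all probe sets), and in the test where the mean over the 4 arrays did. Within a line there is no test, and size was read at 1.5-fold and 2-fold on that scale. The siRNA and line effects came from limma 3.58.1 (R 4.3.3) with terms for line and siRNA, a variance trend, 1 residual and 5.95 prior degrees of freedom and Benjamini-Hochberg adjustment over 32746 probe sets, two-sided. Nothing in the labels names separate cultures, so these p-values cover the spread among the arrays alone, which may be technical.

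The procedure was tested on simulated arrays. It recovered nearly all changes put in, but false calls exceeded the nominal share in most draws. An early form of this test, with noise drawn from the shrunken variances, gave more false calls still and did not meet the limit set for it; the noise was then drawn from the fitted prior, and no limit on false calls was kept. Adjusted p-values near the threshold may therefore be too small.

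The members, lists and settings were chosen with earlier results of these data known. The text names every member probe set, NKX2-1, all paired receptors and ligands, list genes past 2-fold in a line or 1.5-fold in both, and for each member above the limit in both lines the nearest genes over the 4 arrays; not every gene so taken is printed. Genes of the lists without a probe set paired with 1 symbol were not analysed here. Plots used Python 3.11.15 and matplotlib 3.10.9.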

Additional observations from a re-analysis of the deposited data

Results flagged for a closer look

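Of the 9 member probe sets above the limit in both lines, 4 had opposite signs after siTTF-1 in the lines, and with 1 array a group this difference was not tested. GRP (206326_at) had log2 differences of -0.51 in NCI-H209 and 0.40 in Lu139. NMU (206023_at) had -0.16 and 0.14, GRPR (207929_at) -0.069 and 0.13, and SSTR2 (217455_s_at) -0.067 and 0.046. Opposite signs were seen in 36.1% of all probe sets above the limit in both lines.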

How the results depend on the processing

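The main model pairs the arrays by line; no pairing by replicate number was possible, because each combination of line and siRNA is 1 array and the labels carry none. Without the term for the line, the limma adjusted p of every member probe set tested was 1. Leaving out a line leaves the within-line values, which are given for each line. At a limma adjusted p under 0.05 for siTTF-1, 52 probe sets were lower and 13 higher, in place of 0, once all 4 arrays were quantile-normalized, and under it and every other alternative run 0 member probe sets were called; the smallest limma adjusted p of a member was 0.0938, for KISS1R. The mean of NMU, near 0, turned from -0.01 to 0.035 with quantile normalization over the 4 arrays and to 0.035 within each line. With 1 value per gene there are fewer members to count: by the brightest probe set 6 were higher in NCI-H209 than in Lu139 and 1 passed 1.5-fold upwards in NCI-H209, and by the mean of all probe sets 5 and 1. Over pseudocounts, scalings and limits the difference of KISS1R in Lu139 ran from 0.92 to 0.96 and that of ADCYAP1 (230237_at) from 0.85 to 0.96, the lowest with the mean of both probe sets. For CALCA (217495_x_at) it ran from 0.67 to 0.77 in NCI-H209. Of the line differences under alternatives, 4 lost their call, those of GRPR, SSTR2 and KISS1R given above. Having 1 array per group limits every value.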

Other observations

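Other peptide systems also set the lines apart, and these genes were chosen after their values were seen. PENK and NPW were below the limit in NCI-H209, and QPCT was below it in Lu139. Each of them was tested through its level in the other line, so the filter favoured its line call. PENK, which encodes the enkephalin precursor, read 700.2 and 697 in Lu139 against 21.5 and 23.6 in NCI-H209, a line difference of 4.12 (limma adjusted p = 6.14e-07). NPW, which encodes neuropeptide W, read 774 and 1016 in Lu139 and 31.8 and 26.3 in NCI-H209, with a line difference of 4.25 and a siTTF-1 difference of 0.38 in Lu139. In the other direction, ADM, the adrenomedullin gene, read 355 and 341 in NCI-H209, against 42.0 and 53.0 in Lu139 (-2.47; limma adjusted p = 3.91e-06), and PMCH, the precursor gene of melanin-concentrating hormone, 239 and 233 against 50.8 and 55.1 (-1.83). QPCT, whose enzyme forms the pyroglutamate at the start of some peptides, read 2151 and 2890 in NCI-H209, against 17.3 and 14.7 in Lu139 (-6.18; limma adjusted p = 5.98e-07).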
